A study of Mus musculus with 56 samples.

Results

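Genes of the cell cycle were followed in mouse kidney through a day of food restricted to the light or to the dark phase. The members were a fixed list of 40 genes, and all 40 were rows of the deposited table of 17027 genes. They were classed by role into 13 S-phase genes, 10 drivers of G1 and of the G1/S step, 14 genes of G2 and mitosis, and 3 checkpoint members, the kinase gene Wee1 and the CDK inhibitor genes Cdkn1a and Cdkn1b. The rule used no measured value, although the list was drawn up with earlier results of these data known.

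All mice were C57BL/6J females of 9 weeks, housed in groups in 12 h of light and 12 h of dark and held for 7 days on a regimen after 7 days of free feeding. Under nighttime-restricted feeding (NRF), the control, food was offered in the dark phase, and under daytime-restricted feeding (DRF) it was offered in the light phase. Whole-kidney poly(A) RNA was sequenced as 4 libraries a group at zeitgeber times (ZT, with lights on at ZT0 and off at ZT12) of 0, 4, 8, 12, 16, 20 and 24 in each regimen, which made 14 groups and 56 libraries. No allele or drug was named for any group, and all groups shared 1 sex, strain and age.

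The cell cycle runs from growth factor input to division. D-type cyclins with CDK4 and then E-type cyclins with CDK2 release E2F transcription factors, which switch on the genes that license origins, build the MCM helicase and supply nucleotides. Cyclins A and B with CDK1 drive mitosis, and their genes, with those for the spindle checkpoint and for mitotic kinases, are repressed until G2 by the DREAM complex through CHR elements (cell cycle genes homology region). WEE1 holds CDK1 inactive by phosphorylation, and its gene is a direct target of the CLOCK and BMAL1 activators in liver. CDKN1A (p21) is induced by p53 and is also repressed by the clock repressor REV-ERB alpha, which Nr1d1 encodes. Most cells of the adult kidney are quiescent, so transcripts of mitosis come from a small part of the tissue.

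Promoters of the members are shown because the classes differ in the letters they carry. In RefSeq windows of GRCm38.p6 from 250 bases before to 50 bases after a transcript start, 31 of the 40 members had 34 windows, and the 9 members with none were Aurkb, Ccna2, Ccnd1, Ccnd2, Ccne2, Gins2, Mcm4, Myc and Wee1. The motifs searched on both strands were the E-box CACGTG, the D-box TTATGTAA or TTACGTAA, the RORE core TAGGTCA, the E2F letters TTTCCCGC, TTTCGCGC, TTTGCCGC or TTTGGCGC, the CHR TTTGAA and the CCAAT box. E2F letters stood in 6 of 12 S-phase windows, in 2 of 7 G1 windows and in 1 of 12 windows of the mitotic class, against 2.26% of all 32851 windows. The CHR stood in 9 of 12 mitotic windows and in 1 of 12 S-phase windows, against 17.9% of all windows. CCAAT was found in 11 of 12 mitotic and 9 of 12 S-phase windows, with 37.4% of all windows holding it. An E-box was found in Tyms and Cdk4 (7.15% of all windows), a RORE core in Mcm2 (2.61%) and a D-box in no member (1.06%). The pair of E2F matches in Mcm5 overlapped each other, as did 2 of the 3 matches in Mcm6. In all, 3 windows with E2F letters and 3 with CHR letters, of members described below, are printed 5′ to 3′ with those letters in capitals. They are Mcm7 (chr5:138171834-138172133, minus strand), Cdt1 (chr8:122567765-122568064, plus strand), Cdk2 (chr10:128705002-128705301, minus strand), Mki67 (chr7:135716330-135716629, minus strand), Top2a (chr11:99024140-99024439, minus strand) and Cdc20 (chr4:118437294-118437593, minus strand). In the Mcm7 window the last base of the E2F match nearer the end is also the start of a CCAAT box.
Mcm7: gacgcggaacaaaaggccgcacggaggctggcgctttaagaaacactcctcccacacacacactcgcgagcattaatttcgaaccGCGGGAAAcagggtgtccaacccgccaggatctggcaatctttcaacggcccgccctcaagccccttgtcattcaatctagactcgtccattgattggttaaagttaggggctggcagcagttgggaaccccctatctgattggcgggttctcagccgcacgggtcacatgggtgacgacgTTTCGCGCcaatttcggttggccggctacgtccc
Cdt1: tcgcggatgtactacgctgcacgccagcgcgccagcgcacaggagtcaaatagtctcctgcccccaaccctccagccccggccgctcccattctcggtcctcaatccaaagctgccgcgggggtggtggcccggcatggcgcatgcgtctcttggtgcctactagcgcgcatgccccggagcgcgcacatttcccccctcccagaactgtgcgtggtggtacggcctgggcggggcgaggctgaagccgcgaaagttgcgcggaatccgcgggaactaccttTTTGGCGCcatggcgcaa
Cdk2: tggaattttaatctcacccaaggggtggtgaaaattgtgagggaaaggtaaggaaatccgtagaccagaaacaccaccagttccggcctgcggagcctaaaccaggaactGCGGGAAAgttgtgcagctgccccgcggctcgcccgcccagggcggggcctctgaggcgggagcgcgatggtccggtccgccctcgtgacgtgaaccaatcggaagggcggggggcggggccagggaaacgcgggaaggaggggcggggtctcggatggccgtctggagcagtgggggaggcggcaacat
Mki67: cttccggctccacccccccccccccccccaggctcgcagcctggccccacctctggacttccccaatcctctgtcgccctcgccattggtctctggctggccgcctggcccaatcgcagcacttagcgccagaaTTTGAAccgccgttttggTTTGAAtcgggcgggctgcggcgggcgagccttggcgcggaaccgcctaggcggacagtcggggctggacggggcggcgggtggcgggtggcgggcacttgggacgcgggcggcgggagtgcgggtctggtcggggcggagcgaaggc
Top2a: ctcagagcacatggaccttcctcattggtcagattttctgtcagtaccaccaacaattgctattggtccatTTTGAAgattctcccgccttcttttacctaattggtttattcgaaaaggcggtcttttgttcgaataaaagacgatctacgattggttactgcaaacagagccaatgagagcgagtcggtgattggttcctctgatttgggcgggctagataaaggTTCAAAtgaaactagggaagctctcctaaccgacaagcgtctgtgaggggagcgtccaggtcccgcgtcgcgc
Cdc20: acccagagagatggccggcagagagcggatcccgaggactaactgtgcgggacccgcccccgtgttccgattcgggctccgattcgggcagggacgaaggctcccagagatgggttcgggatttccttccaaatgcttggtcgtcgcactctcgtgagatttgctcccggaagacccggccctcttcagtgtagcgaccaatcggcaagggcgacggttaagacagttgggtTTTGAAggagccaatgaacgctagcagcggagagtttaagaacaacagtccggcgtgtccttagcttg

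A library held from 24512200 to 27066200 recovered reads. Levels are in TPM, a unit scaled to gene length and to the library total, so levels of different genes can be set side by side. The kidney markers Umod and Slc34a1 had medians of 4528 and 3206 TPM and did not fall below 2705 and 1990 TPM. The medulla marker Slc14a2 had a median of 62.35 TPM and fell to 0.0708 TPM, and the cortex marker Slc5a2 was not measured. Libraries stood apart in markers of fat and medulla. The summed level of 6 adipose tissue markers ran from 0.0 to 2621 TPM. Mean log2 deviations from each gene's mean over 56 libraries were over 2 for that list in 14 libraries. For 6 renal medulla markers they were under -1 in 6 libraries. Among adrenal markers, Cyp21a1 was at 0 in 28 libraries and did not pass 0.351 TPM in any, and Cyp11a1 was at 0 in 3. Star was found in every library, at 3.553 to 6.212 TPM, and Mc2r reached 1.72 TPM. Cyp11b1 and Cyp11b2 of that list were not measured. Summed levels ran from 3.83 to 7.495 TPM for 4 adrenal markers, from 755 to 9295 TPM for 5 blood markers, from 34450 to 152200 TPM for 6 renal cortex markers and from 3321 to 9322 TPM for 6 tubule injury markers. Star made up most of the adrenal sum, Kap (29160 to 147700 TPM) of the cortex sum and Spp1 (3303 to 9293 TPM) of the injury sum. With all its genes weighted alike, the cortex list had a mean log2 deviation of -0.29 to 0.33. Counts of members are given below also without the libraries high in adipose markers or low in medulla markers where that moves them by more than 1.5 times.

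All 40 members passed the filter on low counts. Their mean levels spanned from 0.502 TPM for the spindle checkpoint kinase gene Bub1 to 117 TPM for Ccnd1, the cyclin D1 gene. Mitotic genes had means from 0.502 to 5.37 TPM, the last for the ubiquitin-conjugating enzyme gene Ube2c. In reads, Bub1 had a mean of 17.9 and as few as 5 in a library, so single libraries of the lowest members are imprecise. The checkpoint members were well expressed, at 12.7 TPM for Cdkn1a, 22.8 TPM for Wee1 and 31.7 TPM for Cdkn1b.

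To determine which members oscillated, a 24-h cosine was fitted to log2 levels in each regimen. Under NRF, 16 of 40 members were rhythmic at an adjusted p under 0.05, beside 51.5% of the genes tested. These were 6 of 13 S-phase genes, 7 of 10 G1 genes, 0 of 14 mitotic genes and all 3 checkpoint members. With DRF the count was 21 of 40, beside 33.6% of the genes tested, made of 4 S-phase, 5 G1, 9 mitotic and 3 checkpoint members. In all, 9 members were called under both regimens, 7 under NRF alone, 12 under DRF alone and 12 under neither. A call in 1 regimen alone is no difference between regimens, so the difference in rhythm was tested as the interaction of regimen with clock time. It was called for 20 of 40 members, beside 43.7% of the genes tested: 6 S-phase, 8 G1, 3 mitotic and 3 checkpoint members. The DRF count fell to 13 without replicate 2 and 8 without replicate 3 of every group, where 18.1% and 17.7% of all genes were still called. The interaction count was 9 without replicate 1 and 10 without replicate 3, with 31.4% and 30.5% of all genes called. It was 13 without ZT0 (36.8% of all genes), 13 without ZT12 (38.3%) and 12 without ZT24 (35.8%). Without the libraries high in adipose markers it was 12 (36.4%), and without those low in medulla markers 13 (39.7%).

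**Figure D1:**
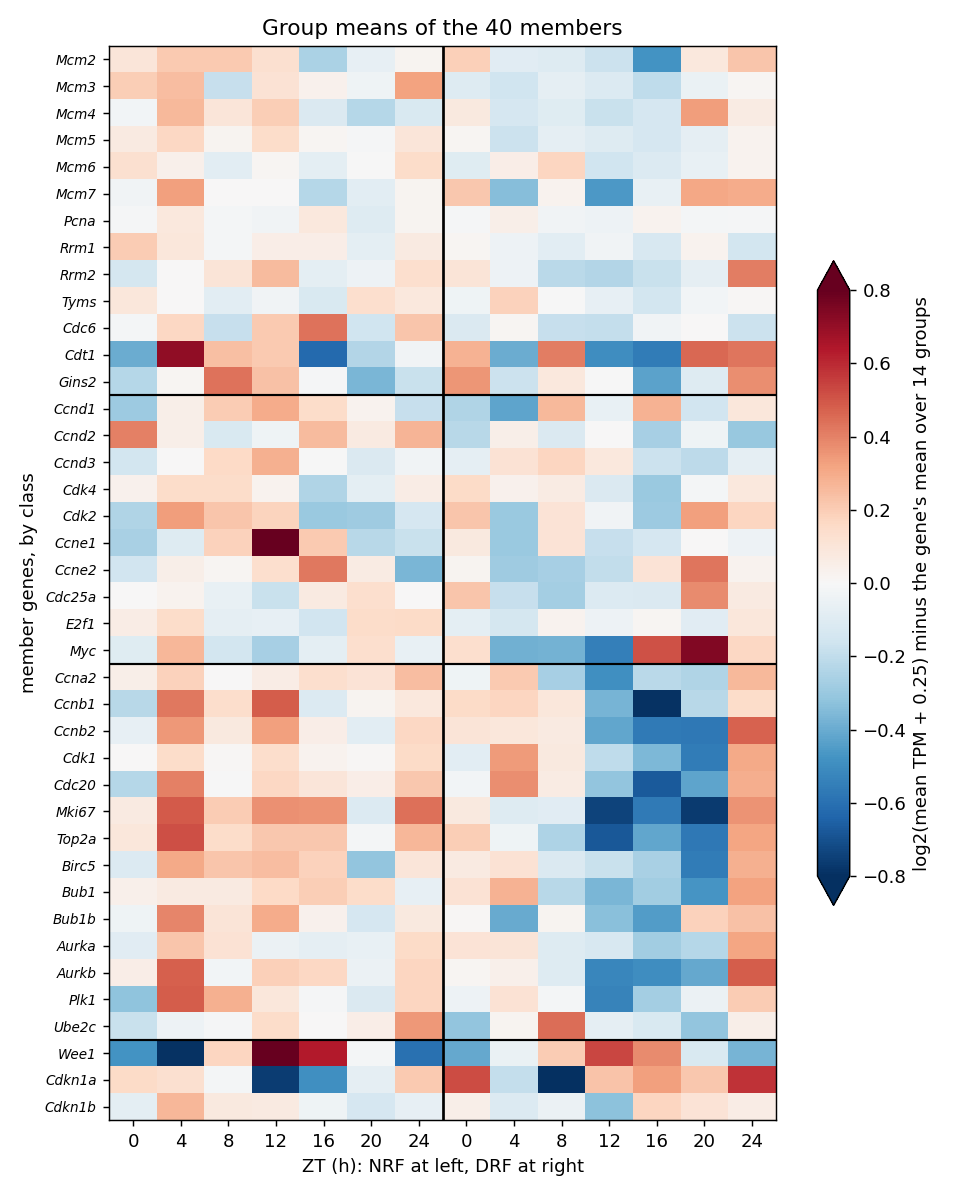
Group means of the 40 members (rows, by class from S phase at the top to the checkpoint members at the bottom) at each ZT in h under NRF (left 7 columns) and DRF (right 7 columns), as log2(mean TPM + 0.25) minus the gene's mean over the 14 groups. Mitotic rows other than Ube2c have their lowest DRF group at ZT12, ZT16 or ZT20, and Wee1 peaks at ZT12 in both regimens.

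The S-phase class varied little in total. Its 13 genes summed to between 125 and 184 TPM in every library, and the median fitted peak-to-trough ratio was 1.16 under NRF and 1.18 under DRF. The most abundant member, Pcna (the sliding clamp of DNA polymerase, 57.8 TPM), had the smallest ratio under NRF, 1.03, and its DRF minus NRF difference lay between -0.054 and 0.085 on the log2 scale at all 7 times, with an SE of 0.08. Movement was found in other members. The 3 with the lowest interaction p were Mcm7 (adjusted p = 0.000415), Gins2 (0.000744) and Mcm2 (0.0012), and Mcm4, Cdt1 and Rrm2 were called as well. The Rrm2 call was lost in 10 of 22 alternatives, among them each replicate left out (adjusted p up to 0.183), that of Mcm4 in 3 (without replicate 1, replicate 3 or ZT20) and that of Cdt1 in 1 (without the libraries high in adipose markers).

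Cdt1, which loads the MCM helicase on origins, had the largest swing of the class in both regimens, a fitted ratio of 2.07 under NRF and 1.61 under DRF. At ZT4 its level was 7.11, 6.62, 10.5 and 6.85 TPM under NRF and 3.21, 3.81, 3.29 and 3.61 TPM under DRF. Every DRF library lay below every NRF library, a difference of -1.08 ± 0.17 (SE) in log2 with an adjusted p of 3.45e-06. At ZT20 the order was the other way, with 2.67, 3.25, 5.47 and 4.32 TPM under NRF and 7.04, 6.04, 6.21 and 6.74 TPM under DRF. The groups again did not overlap, and DRF was 1.67 times higher (adjusted p = 0.0015). Cdt1 was also higher under DRF at ZT0 (1.59 times) and lower at ZT12 (0.599 times).

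Mcm7, a subunit of the helicase itself, moved in the same directions by less. Its levels at ZT4 were 16.3, 14.3, 17.9 and 17.0 TPM under NRF and 9.58, 8.57, 9.56 and 13.1 TPM under DRF. No library of the 2 groups overlapped, and the difference was -0.68 ± 0.11 in log2 (adjusted p = 5.75e-06). Mcm7 was lower under DRF at ZT12 too (-0.47, adjusted p = 0.00159) and higher at ZT20 (0.38, adjusted p = 0.0116). Its fitted peak was at 4.81 ± 0.76 h under NRF and 21.8 ± 0.92 h under DRF.

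Mcm2, of the same helicase ring, was lower under DRF at ZT4, ZT8 and ZT12, with log2 differences of -0.297, -0.313 and -0.302 and adjusted p from 0.0196 to 0.0239. Its mean over the day was lower under DRF, by a log2 difference of -0.14 ± 0.04 (adjusted p = 0.00972), a call that 7 of 22 alternatives lost, among them those without replicate 1 or replicate 3. Mcm4 was higher under DRF at ZT20, with 7.20, 8.79, 9.18 and 8.47 TPM under NRF and 10.1, 9.81, 15.1 and 15.1 TPM under DRF (adjusted p = 0.0373). The DRF libraries fell into a lower and a higher pair, and all 4 were above NRF. Gins2, a subunit of the active helicase, stood at 1.19, 1.15, 1.39 and 0.952 TPM at NRF ZT0 and at 1.74, 2.30, 1.76 and 1.67 TPM at DRF ZT0. It was 1.49 times higher under DRF there, with no overlap (adjusted p = 0.0175), and 1.48 times higher at ZT24 (adjusted p = 0.0232), where the groups overlapped through 1 NRF library. The other MCM genes, Mcm3, Mcm5 and Mcm6, were called at no hour when the regimens were compared at the same ZT.

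Among the G1 members, Cdk2 had the clearest change of profile (interaction adjusted p = 1.03e-05, called in all 22 alternatives). Its kinase acts with cyclin E at the entry to S phase. At ZT4 the libraries held 9.10, 7.28, 9.47 and 8.77 TPM under NRF and 6.01, 4.88, 5.22 and 5.91 TPM under DRF, and at ZT20 they held 5.25, 5.70, 5.51 and 5.75 TPM under NRF and 8.41, 7.21, 9.07 and 9.77 TPM under DRF. Neither time had an overlap, and the direction changed from -0.63 ± 0.08 to 0.60 ± 0.08 in log2 (adjusted p = 8.5e-08 and 4.39e-07). Cdk2 was higher under DRF at ZT0 and ZT24 as well, by 1.38 and 1.24 times. Over the day it averaged 6.90 TPM with NRF and 6.92 TPM with DRF.

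Myc, a transcription factor that promotes growth and G1 progression, had a small cosine under NRF, a ratio of 1.18, and the largest of all members under DRF, 2.37, with a peak at 19.5 ± 0.45 h. At ZT16 the levels were 8.11, 10.9, 8.52 and 10.3 TPM under NRF and 15.6, 13.3, 15.6 and 12.7 TPM under DRF, a ratio of 1.5 (adjusted p = 0.0159). At ZT20 they were 12.3, 11.1, 11.6 and 9.01 TPM against 18.3, 12.1, 17.9 and 19.1 TPM, 1.51 times higher (adjusted p = 0.00531). Groups were apart at ZT16 and overlapped at ZT20 through 1 DRF library. At ZT4 Myc was lower under DRF, 9.55, 12.8, 14.3 and 11.6 TPM under NRF against 7.55, 6.27, 7.02 and 9.58 TPM, at 0.637 times (adjusted p = 0.00132), with the highest DRF library just above the lowest NRF library. The interaction had an adjusted p of 2.62e-05 and was called in all 22 alternatives.

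The cyclin genes of G1 did not move together. Ccne1 (cyclin E1) was at 2.20, 1.03, 1.296 and 1.21 TPM at NRF ZT12 and was at 0.629, 0.787, 0.448 and 0.460 TPM at DRF ZT12. These groups did not overlap, and the difference was -0.99 ± 0.24 in log2 (adjusted p = 0.00236). Ccne1 had a mean of only 15.6 reads and as few as 6 in a library. Its interaction call was lost without replicate 1, without ZT12 and without the libraries high in adipose markers (adjusted p up to 0.352). Ccnd3 (cyclin D3) peaked at 10.1 ± 0.63 h under NRF and 7.28 ± 0.34 h under DRF, was lower under DRF at ZT12 by a log2 difference of -0.20 (adjusted p = 0.02), and had an interaction p of 0.00347. Ccnd2 (cyclin D2) was lower under DRF at ZT0 (12.6, 10.95, 12.4 and 9.67 TPM against 7.76, 6.54, 7.16 and 7.68 TPM, adjusted p = 0.00767) and at ZT24 (adjusted p = 0.016). All 4 DRF libraries of ZT0 were below all NRF libraries. Its mean over the day was lower by a log2 difference of -0.20 ± 0.07 with an adjusted p of 0.0495, a call that 13 of the 22 alternatives lost. Ccnd1 was rhythmic under NRF, from 94.3 ± 12.9 TPM at ZT0 to 142 ± 29.3 TPM at ZT12 (SD, n = 4), and gave no call under DRF, with an interaction p of 0.574. Cdc25a, whose phosphatase removes the mark that WEE1 sets, was rhythmic under DRF with a ratio of 1.46 and a peak at 20.8 ± 0.57 h. Its highest group was DRF ZT20 at 8.88, 8.66, 10.8 and 9.54 TPM, above all 4 NRF libraries of that hour, 7.18, 8.49, 8.21 and 8.03 TPM, a difference that missed the threshold (adjusted p = 0.0729). The interaction p of 0.0354 was lost in 10 of 22 alternatives, among them those without replicate 1, 3 or 4, and reached 0.352.

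The mitotic class was called rhythmic under DRF only in part and under NRF not at all, and its summed DRF level was lowest from ZT12 to ZT20. Ube2c, its most abundant member, was lowest instead at DRF ZT0 (4.21 TPM). Under NRF limma called 0 of 14 genes rhythmic, where 1 had an unadjusted p under 0.05 and limma voom also called 0. Under DRF 9 were rhythmic, with fitted peaks from 1.45 h (Ccna2, cyclin A2) to 4.52 h (Cdk1), and voom called 9. The median fitted peak-to-trough ratio was 1.19 under NRF and 1.66 under DRF, and no such median over all genes is given. Summed over the 14 genes, the level was 25.6 ± 5.14 TPM at DRF ZT12, 25.4 ± 7.5 TPM at ZT16 and 25.8 ± 3.34 TPM at ZT20 (SD, n = 4). It was 41.6 ± 13.2 TPM at DRF ZT24 and 33.7 ± 5.02 TPM at DRF ZT0, the same clock time. NRF groups lay between 31.8 ± 4.16 TPM at ZT0 and 42.6 ± 9.13 TPM at ZT4. All 14 genes had a lower mean under DRF at ZT12 and at ZT16, where 57.0% and 60.5% of all genes tested did. The median differences were -0.58 and -0.49 in log2 beside -0.04 at both for all genes. Between libraries the 14 genes varied together (median r 0.70, described below), so they are not 14 separate observations. In whole tissue, fewer dividing cells and less RNA in each cannot be told apart. The 9 DRF calls were 0 without replicate 3, 5 without replicate 2 and 4 without ZT12, where 17.7%, 18.1% and 28.6% of all genes were called.

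In the class, 3 genes differed between regimens in rhythm: Bub1 (adjusted p = 0.0316), Ccnb1 (0.0343) and Cdc20 (0.0411). They were 21.4% of the class, below the 43.7% of the genes tested that differed. Each of these calls was lost in at least 10 of its 21 or 22 alternatives, and without replicate 3 the values were 0.197, 0.197 and 0.186. For the other 11 no difference in rhythm was shown.

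Mki67, the proliferation marker Ki-67, was measured at ZT12 as 5.44, 3.12, 2.52 and 4.49 TPM under NRF and as 2.39, 1.80, 1.14 and 1.36 TPM under DRF. Every DRF library was below every NRF library, and DRF was at 0.468 times NRF (log2 difference -1.09 ± 0.32, adjusted p = 0.013). Top2a, the topoisomerase that untangles chromosomes, stood at 3.18, 1.72, 1.68 and 2.72 TPM under NRF and 1.49, 1.37, 0.833 and 0.843 TPM under DRF at that hour, also with no overlap (0.541 times, adjusted p = 0.0292). Ccnb1, cyclin B1, was at 1.81, 1.18, 1.11 and 1.75 TPM against 0.880, 0.935, 0.565 and 0.407 TPM, again apart (0.547 times, adjusted p = 0.0425). These were the only 3 mitotic members called at ZT12, 21.4% of the class, beside 11.9% of the genes tested that were lower there. At ZT16, Mki67 was at 0.503 times NRF with an adjusted p of 0.0588 and Cdc20 at 0.568 times with 0.077, so neither passed. Over the day, Mki67 was lower under DRF by a log2 difference of -0.60 ± 0.13 (adjusted p = 0.00104) and Top2a by -0.47 ± 0.12 (0.00471). Without replicate 1 both calls were lost (adjusted p = 0.0535 and 0.147), and that of Top2a also without ZT12 or the libraries high in adipose markers.

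These 2, with Mcm2 and Ccnd2, were the 4 members whose mean over the day was lower under DRF, and no member was higher. Of the genes tested 7.75% were lower and 10.3% changed in either direction, so 4 of 40 is near the background. The count was 0 without replicate 1 and 2 without replicate 3, where 5.09% and 4.11% of all genes were called. It was 2 without ZT12 (7.27% of all genes) and 12 without ZT20, where the share of all genes also went up, to 24.4%. It was 1 without the libraries high in adipose markers (4.58%) and 2 without those low in medulla markers (8.84%). All 14 mitotic and all 13 S-phase genes had a mesor difference below 0, as did 68.1% of all genes, with medians of -0.25, -0.06 and -0.03 in log2. Genes of each class varied together between libraries (median r 0.70 and 0.40), so neither count is of separate observations.

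**Figure D2:**
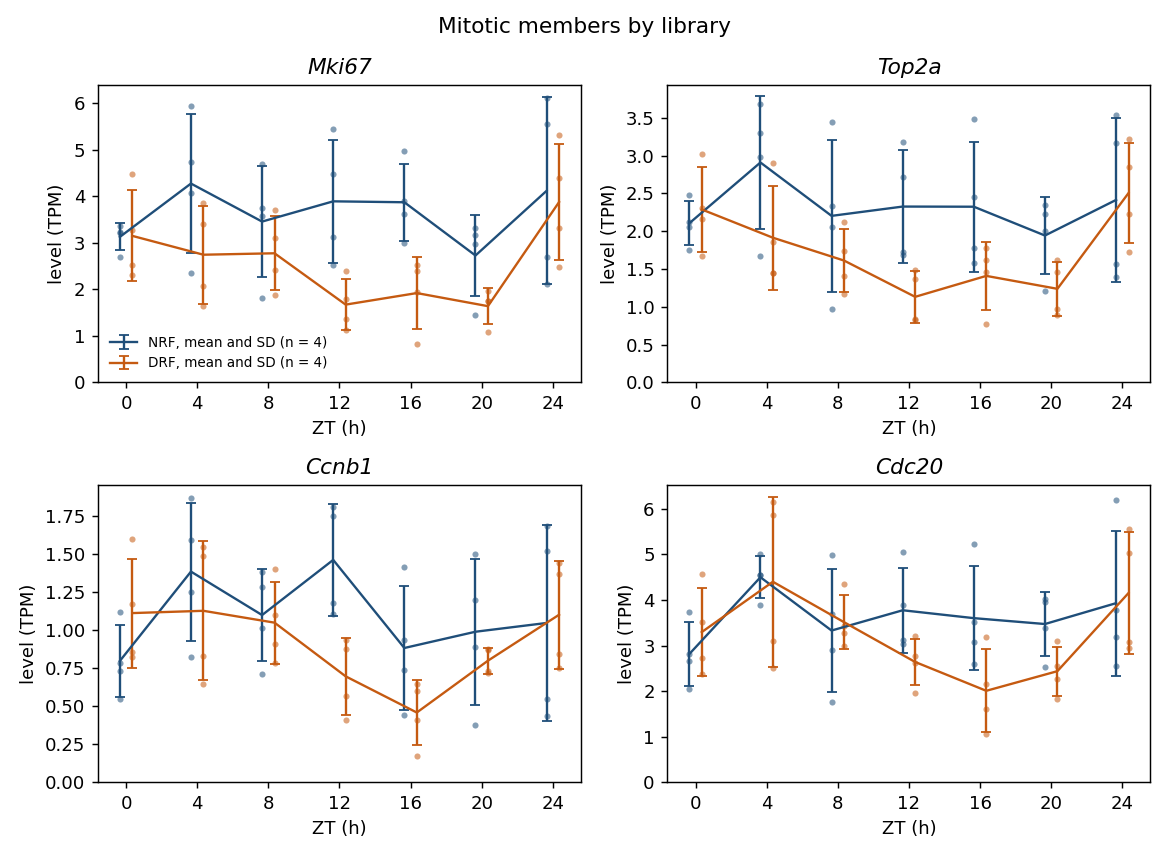
Levels of Mki67, Top2a, Ccnb1 and Cdc20 in TPM against ZT in h, with a point for each library and lines for the mean and SD of 4 libraries, NRF in blue and DRF in orange. At ZT12 the 4 DRF libraries of Mki67, Top2a and Ccnb1 lie below the 4 NRF libraries, and the spread within groups is wide at ZT24.

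Markers of immune cells moved at the same hour. The summed level of 18 immune markers was 425 to 561 TPM at DRF ZT12 and 595 to 882 TPM at NRF ZT12, with no overlap, and the mean log2 deviation of the list was -0.71 to -0.39 in those DRF libraries, a range that libraries of NRF ZT0 and DRF ZT16 alone among the other groups reached. The antigen presentation gene Cd74 made up most of that sum, with a median of 597 TPM. At DRF ZT16 and ZT20, where the mitotic sum was as low, the immune deviation ran from -0.47 to -0.01 and from -0.23 to 0.05. At NRF ZT4, with the highest NRF mitotic sum, it ran from 0.17 to 0.37. The B-cell marker Ms4a1 was at 0 in 1 library and the neutrophil gene S100a8 in 7, and the other 16 markers were above 0 in all libraries. The part of immune cells in the mitotic result was not tested.

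**Figure D3:**
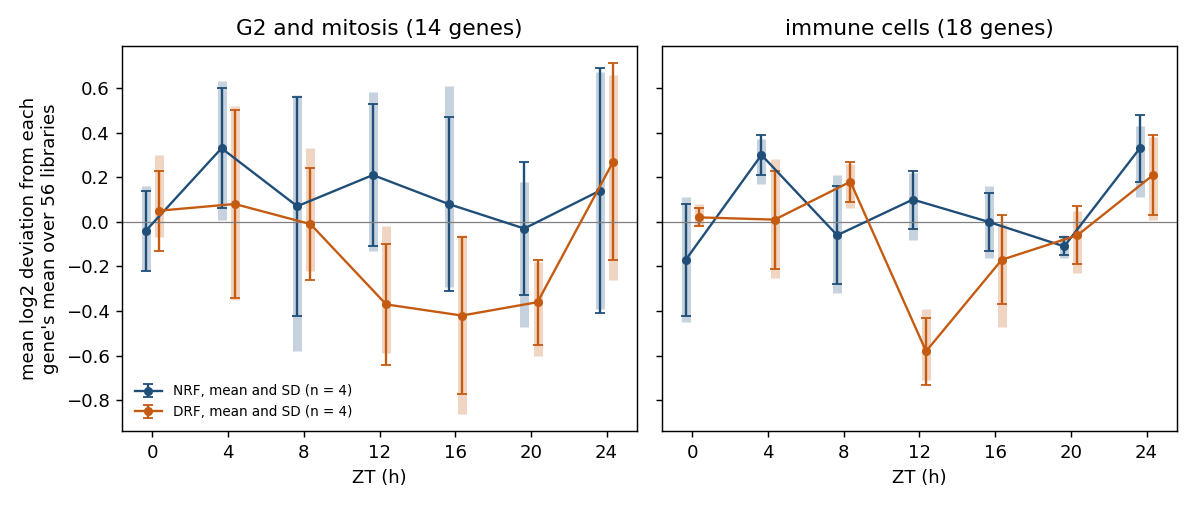
Mean log2 deviation from each gene's mean over 56 libraries, for the 14 mitotic members (left) and 18 immune markers (right), against ZT in h, NRF in blue and DRF in orange. Points and thin bars are the mean and SD of 4 libraries and pale bars span the lowest to the highest library, and the mitotic genes stay low at DRF ZT12 to ZT20 while the immune markers are lowest at DRF ZT12.

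Within groups the mitotic genes varied together from library to library. After the group mean was taken away, all 91 pairs of the 14 genes had a Pearson r above 0 over the 56 libraries, with a median of 0.70 and a range of 0.50 to 0.92. In the S-phase class the median r was 0.40 with 66 of 78 pairs above 0, and between mitotic and checkpoint members it was 0.03 over 42 pairs. These values describe libraries that share RNA, depth and composition, and carry no test.

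Wee1 had the largest cosine of the members under NRF, a fitted ratio of 3.07, and 1.87 under DRF. At ZT12, its highest hour in both regimens, Wee1 stood at 40.7, 40.4, 42.5 and 40.4 TPM under NRF and 32.1, 32.9, 27.99 and 32.3 TPM under DRF. At ZT4, the lowest NRF hour, it was 13.0, 8.76, 14.4 and 13.2 TPM under NRF and 21.7, 23.9, 14.9 and 22.7 TPM under DRF. The peak was lower and the NRF trough was filled in under DRF, with no overlap of libraries at either hour. The differences were -0.39 ± 0.13 in log2 at ZT12 (adjusted p = 0.0307) and 0.74 ± 0.13 at ZT4 (adjusted p = 2.66e-05), and no other hour passed. The lowest DRF group was ZT0 at 16.2 ± 2.74 TPM, close to DRF ZT24 at 16.6 ± 2.99 TPM and DRF ZT20 at 19.8 ± 1.85 TPM (SD, n = 4).

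On the TPM scale, the Wee1 cosine had an amplitude of 13.2 ± 0.83 TPM under NRF and 7.09 ± 0.70 TPM under DRF (SE), a difference of -6.11 TPM with an adjusted p of 0.00012 in a 2-sided permutation test of regimen labels within ZT. It peaked at 13.6 ± 0.26 h under NRF and 12.3 ± 0.43 h under DRF, a shift of -1.24 h (permutation adjusted p = 0.0387). Exchanging labels assumes no regimen difference of any kind. As the Wee1 amplitude differed, the p of the shift is not that of a change in phase alone. The fitted means of 24.9 ± 0.61 TPM (NRF) and 23.5 ± 0.53 TPM (DRF) had a difference that missed the threshold (permutation adjusted p = 0.257). The shift missed the threshold without replicate 1, 2 or 4, without ZT4 (-0.67 h), ZT8 or ZT20, and without the libraries high in adipose markers, and the amplitude difference passed in all alternatives run. Set beside it, the clock genes Per2, Dbp, Nr1d1 and Arntl had shifts of -2.91 ± 0.50, -2.69 ± 0.58, -2.07 ± 0.43 and -2.11 ± 0.33 h. Their DRF amplitudes were 0.721, 0.625, 0.487 and 0.571 of the NRF amplitudes, and that of Wee1 was 0.537.

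Cdkn1a was rhythmic in both regimens. Its highest group was ZT24 in both, with means (± SD of 4 libraries) of 14.1 ± 3.28 TPM for NRF and 18.3 ± 4.93 TPM for DRF, while the lowest was ZT12 under NRF and ZT8 under DRF. The fitted 24-h peaks given below differ, and the DRF profile also had a called 12-h component (adjusted p = 0.0425). Its levels at ZT12 were 10.7, 5.17, 6.59 and 5.80 TPM under NRF and 8.42, 14.02, 11.6 and 23.1 TPM under DRF. DRF was 1.93 times higher (log2 difference 0.95 ± 0.29, adjusted p = 0.015), and the groups overlapped through the highest NRF library. At ZT8, the lowest DRF hour, the DRF libraries were 7.07, 6.91, 6.41 and 6.52 TPM and the NRF libraries 15.8, 11.9, 10.3 and 10.1 TPM. They did not overlap, with an adjusted p of 0.0526 that just missed the threshold. One DRF ZT16 library stood at 29.0 TPM where the other 3 were at 10.1 to 11.5 TPM. The fitted peak was at 1.82 ± 0.96 h under NRF and 20.3 ± 1.29 h under DRF, a shift of -5.56 h (permutation adjusted p = 0.0351), with amplitudes of 3.29 ± 0.77 and 4.23 ± 1.49 TPM (difference 0.944 TPM, permutation adjusted p = 0.559) and means of 11.03 ± 0.56 and 13.5 ± 1.03 TPM (permutation adjusted p = 0.103). The shift was lost without replicate 1 (-3.52 h), 3 or 4, without ZT4 or ZT8, and without the libraries high in adipose markers. The interaction p of 0.014 was lost without replicate 1, 3 or 4 and without ZT8, and the DRF rhythm without replicate 1, replicate 3 or ZT8.

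Cdkn1b, the p27 inhibitor of CDK2, had the same amplitude in both regimens, 0.16 in log2, at nearly opposite hours, 7.04 ± 1.05 h under NRF and 20.5 ± 1.202 h under DRF (interaction adjusted p = 0.00108, called in all 22 alternatives). Its rhythm call was lost in 6 of 22 alternatives under NRF and in 9 under DRF. At ZT12 the levels were 37.4, 31.8, 32.1 and 31.5 TPM under NRF and 23.9, 26.8, 27.8 and 21.8 TPM under DRF, with no overlap (0.756 times, adjusted p = 0.0107). At ZT4 they were 35.9, 32.9, 41.9 and 40.8 TPM against 27.9, 23.6, 27.6 and 37.6 TPM (0.764 times, adjusted p = 0.0106), where the highest DRF library reached into the NRF range.

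**Figure D4:**
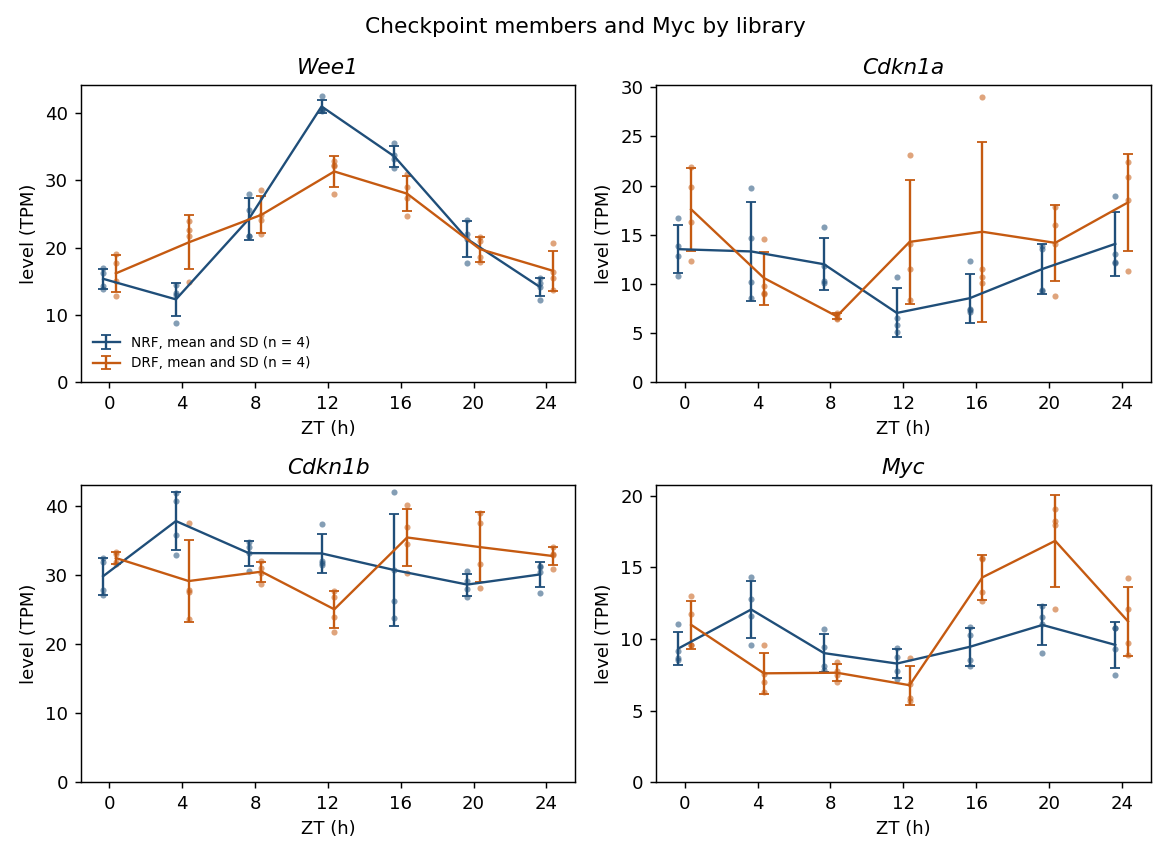
Levels of Wee1, Cdkn1a, Cdkn1b and Myc in TPM against ZT in h, with a point for each library and lines for the mean and SD of 4 libraries, NRF in blue and DRF in orange. Wee1 keeps its ZT12 maximum under DRF at 31.3 TPM where NRF reached 41.0 TPM, and Myc is highest at DRF ZT20 with 16.9 TPM.

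Members called rhythmic in both regimens did not shift by 1 common amount. On the log2 scale the peak moved by -1.49 ± 0.55 h for Wee1, -2.39 ± 0.79 h for Cdk4 and -2.85 ± 0.71 h for Ccnd3. For Mcm2, Cdkn1a, Cdt1 and Mcm7 it moved by -4.89 ± 1.05, -5.26 ± 1.36, -5.98 ± 1.51 and -6.98 ± 1.19 h. These genes and Cdk4 also had a called 12-h component under DRF, so 1 peak time describes their DRF profiles only in part. The DRF rhythm of Cdt1 was called in 13 of 22 alternatives. Cdkn1b moved by -10.5 ± 1.6 h, near the 12 h at which earlier and later cannot be told apart. Ccne2 (cyclin E2) moved later, by 5.30 ± 1.42 h. Its DRF rhythm call was lost without replicate 1, 2 or 3 or ZT20, and its interaction call without replicate 1, replicate 3 or ZT24. Along this order, the gap from Ccnd3 to Mcm2, that from Mcm7 to Cdkn1b and that from Wee1 to Ccne2 exceeded the sum of the neighbours' SEs, and the other gaps did not.

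**Figure D5:**
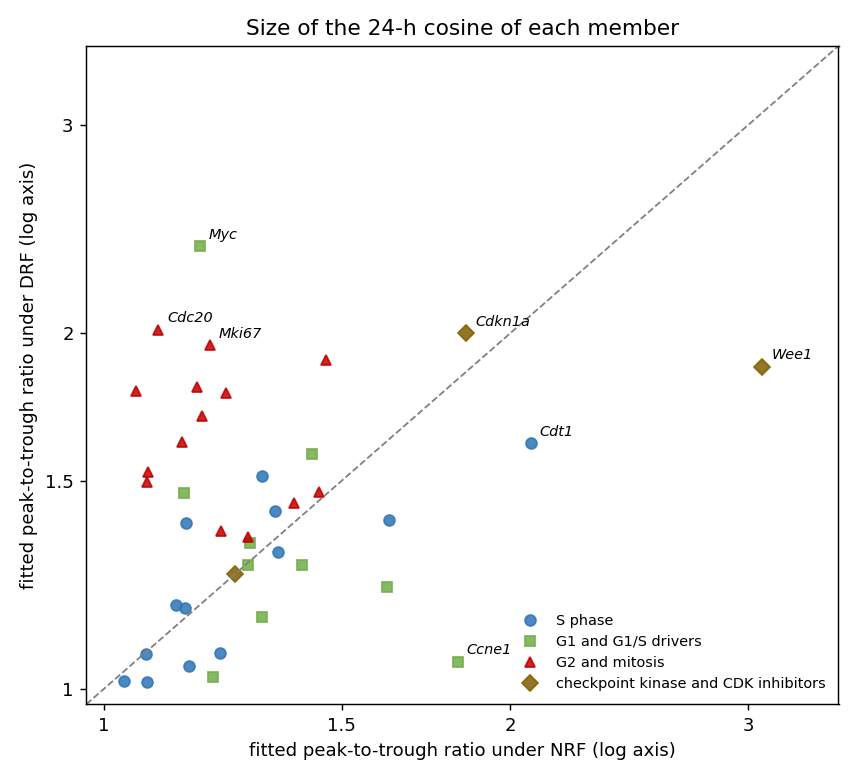
Fitted peak-to-trough ratio of the 24-h cosine of each of the 40 members under NRF (horizontal, log axis) and DRF (vertical, log axis), with a symbol for each class and a dashed line of equal ratios. All 14 mitotic members lie above the line, some close to it, such as Plk1 at 1.44 (NRF) and 1.47 (DRF). The share of all genes above the line is not given, and the interaction was called for 3 of the 14. Myc is highest at 2.37 under DRF, and Wee1 lies farthest right at 3.07 under NRF.

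To ask at which hours the regimens differed, DRF was set against NRF at each ZT. Over 40 members and 7 hours, 33 differences were called, beside 16.2% of such tests over all genes. At ZT4, 7 members were lower under DRF (Mcm2, Mcm7, Cdt1, Cdk2, Myc, Bub1b and Cdkn1b), or 17.5% beside 17.2% of all genes, and Wee1 was higher. At ZT12, 10 were lower and Cdkn1a was higher, and 11.9% of all genes were lower. At ZT20, Mcm4, Mcm7, Cdt1, Cdk2 and Myc were higher, 5 of 40 beside 10.2%. The total was 20 without replicate 1, 18 without replicate 3 and 17 without the libraries high in adipose markers. The share of all genes called in these settings is not given.

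Hours of the same distance from the meal were then compared, DRF at each ZT against NRF 12 h away, with ZT0 and ZT24 averaged. Over 6 pairs 46 differences were called, beside 16.6% of such tests over all genes. There were 26 without replicate 3 and 30 without the libraries high in adipose markers, settings for which no share of all genes is given. The most differences were between DRF ZT16 and NRF ZT4, both 4 h after the phase with food ended. There, 16 of 40 members were lower at DRF ZT16, beside 26.7% of all genes. Of these, 8 were mitotic, and the median of that class was -0.825 in log2 against -0.115 for all genes. Cdc20, which activates the anaphase-promoting complex, was at 4.54, 3.898, 4.55 and 5.01 TPM at NRF ZT4 and at 2.17, 3.19, 1.058 and 1.61 TPM at DRF ZT16, with no overlap (0.448 times, adjusted p = 0.00123). Ccnb1 was at 0.430 times, Mki67 at 0.473 and Aurkb, a kinase of chromosome segregation, at 0.505. Marker lists moved between the same groups. The mean log2 deviation of immune markers was 0.17 to 0.37 at NRF ZT4 and -0.47 to -0.01 at DRF ZT16, and that of renal cortex markers was -0.05 to 0.33 and -0.19 to -0.12, both without overlap. Renal medulla markers had deviations of -1.46 to 0.43 at NRF ZT4 and 0.28 to 0.85 at DRF ZT16, which overlapped, and summed levels of 4867 to 6426 TPM and 6716 to 7778 TPM, which did not. Umod, with a median of 4528 TPM, had the largest part in those sums. The part of the marker lists in the result was not tested. Without replicate 3 the mitotic count was 2, without replicate 4 it was 3, and it was 5 without the libraries high in adipose markers, again with no share of all genes given. Wee1 differed in 4 of the 6 pairs, with DRF ZT0 at 0.399 times NRF ZT12 (adjusted p = 1.48e-12) and DRF ZT16 at 2.28 times NRF ZT4 (adjusted p = 1.41e-09). Cdkn1a differed in 1 pair, DRF ZT0 at 2.51 times NRF ZT12 (adjusted p = 0.000128). These comparisons share libraries with those at the same ZT.

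A 12-h component was called for 9 members under DRF (Mcm2, Mcm7, Cdt1, Gins2, Cdk4, Cdk2, Myc, Bub1b and Cdkn1a), or 22.5%, beside 24.1% of all genes. Under NRF limma called it for 0 members, with 7 at an unadjusted p under 0.05 and 0 by voom, beside 0.532% of all genes. The lowest adjusted p of the 9 were 2.62e-06 for Cdk2 and 5.25e-06 for Cdt1. A single 24-h peak time describes these DRF profiles only in part. The DRF count was 2 without replicate 3 and 5 without replicate 1, replicate 4, ZT4, ZT8 or the libraries high in adipose markers. No share of all genes is given for these settings, so a loss particular to the members cannot be told from one over all genes. Between ZT24 and ZT0, a day apart, limma called 0 members in either regimen, with 1 under NRF and 0 under DRF at an unadjusted p under 0.05 and 0 by voom, beside 0.415% of tests over all genes.

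Other genes of the pathway were taken from lists. Of all genes tested, 51.5% were rhythmic under NRF, 33.6% were rhythmic under DRF and 43.7% differed in rhythm. Of 51 other mitotic genes tested, 9 were rhythmic under NRF (17.6%) and 23 under DRF (45.1%), and 17 differed in rhythm (33.3%). The mean over the day under DRF was lower for 17 and higher for 0, 33.3% lower beside 7.75% of all genes. Mesor calls in either direction over all genes went from 10.3% to 5.09% without replicate 1 and 4.58% without the libraries high in adipose markers. How the count of 17 moves in the alternatives is not given for these other mitotic genes. The 3 with the lowest interaction p were Hmgb2, a DNA-bending protein (37.7 TPM, peak 6.73 h under NRF and 0.599 h under DRF, adjusted p = 1.11e-09), Cks2, a CDK subunit (106 TPM, adjusted p = 1e-05), and the condensin gene Ncapd2 (5.13e-05). Cks2 moved later, by 5.14 ± 0.81 h, and Hmgb2 and Ncapd2 moved earlier. Of 44 other replication genes, 20 were rhythmic under NRF (45.5%), 14 under DRF (31.8%) and 18 differed in rhythm (40.9%), led by Tk1 (thymidine kinase, adjusted p = 7.62e-06), Mcm10 and Chaf1b. Of 41 other regulators, 23, 12 and 17 were called in the same order (56.1%, 29.3% and 41.5%), led by Tfdp1, the partner of E2F, Fbxo5, an inhibitor of the anaphase-promoting complex, and Cdk7. Fbxo5 also had a lower mean under DRF (log2 difference -0.33, adjusted p = 9.51e-05). Of 21 genes of the p53 list, Trp53 itself among them, 11, 6 and 6 were called (52.4%, 28.6% and 28.6%), led by Trp53 (peak 5.98 h under NRF and 1.78 h under DRF), Perp and Trp53inp1. Of 18 clock genes, 18 were rhythmic under NRF, 16 under DRF (88.9%) and 17 differed in rhythm (94.4%). Each list's counts describe it and carry no test of the list.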

How the data were processed

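Kidney poly(A) RNA was sequenced by the authors in 56 libraries (BGISEQ-500, paired ends), and the submitters' processing notes name HISAT2, Bowtie2 and RSEM and the builds mm10 and GRCm38.p6. The deposited table holds a score per gene and library that is named TPM. Its values were read, as the design foresaw, as log2(CPM + 1) divided by gene length and scaled to one sum, and not as linear TPM. Whole reads were recovered from these steps (90.8 to 91.7% of values within 0.05 of a whole read, and hundredths of a read for other genes, 5 members among them), and TPM were computed with exon lengths, for 16742 of 17027 genes. Recovered reads were 24512200 to 27066200 per library. Column names gave the groups, and 1 NRF ZT24 column had a replicate number that the labels do not hold and was used as an unnumbered replicate.

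Genes with a mean of at least 10 reads (14467) were tested on log2(TPM + 0.25) with limma 3.58.1 (trend) in R 4.3.3, with Benjamini-Hochberg adjustment over all genes tested and a threshold of 0.05. A cosine of 24 h was fitted in each regimen, with ZT24 at the phase of ZT0. Rhythm, 12-h terms added to it, and the interaction with regimen were F tests, and mesor (mean over 6 clock times), same-ZT, meal-matched and ZT24 minus ZT0 differences were contrasts of 14 group means. Wee1 and Cdkn1a cosines on TPM were compared by 100000 permutations of regimen within ZT (smallest possible p 1e-05), adjusted over 6 tests. Each of these tests assumes no regimen difference of any kind, so a p for phase, amplitude or mesor does not isolate that parameter. Scripts were tested on simulated data. The labels do not say that libraries of a group came from separate mice, so p-values measure only the spread between these samples, which may be technical. All 84 pairs of replicates differed by at least 2.65 times the counting noise.

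Members and lists were chosen with earlier results of these data known. Named in detail were Wee1, Cdkn1a, Cdkn1b, Cdc25a, Myc, Ccnd1, the 3 genes of each larger class with the lowest interaction p and every gene with a mesor call. Other members were named as called at an hour or as highest or lowest of a class, and some of these after their values were seen. Marker lists were immune cells, blood, adrenal gland, adipose tissue, renal cortex, renal medulla and tubule injury. Alternatives were another scaling, pseudocounts of 1 and 0.05, another filter or none, the log2(CPM + 1) scale, voom, a replicate block, and each replicate or ZT left out. Leaving out the 14 libraries high in adipose markers (mean log2 deviation over 2) or the 6 low in medulla markers (under -1) was chosen after seeing the data.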

Additional observations from a re-analysis of the deposited data

Results flagged for a closer look

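Among 17 members described in detail, 238 groups of 4 libraries were checked for 1 library far from the other 3 (a gap to the nearest library above Dixon's 95% limit), which chance gives in about 1 of 20 groups, and 19 were found. Cdkn1a had 4, with a high library of 12.32 TPM at NRF ZT16, 18.96 TPM at NRF ZT24, 14.61 TPM at DRF ZT4 and 29.0 TPM at DRF ZT16. Wee1 had a high library of 42.49 TPM at NRF ZT12 and a low one of 27.99 TPM at DRF ZT12, and Cdkn1b a high one of 37.4 TPM at NRF ZT12. High libraries were also found for Mcm2 at NRF ZT0 (8.577 TPM) and DRF ZT24 (9.153 TPM), Mcm7 at DRF ZT0 (15.9 TPM), Gins2 at DRF ZT0 (2.298 TPM), Ccnd1 at NRF ZT12 (185.7 TPM), Ccnd2 at NRF ZT24 (11.82 TPM) and Cdk2 at NRF ZT24 (6.52 TPM) and DRF ZT16 (6.198 TPM). Low libraries were found for Ccnd3 at DRF ZT0 (38.03 TPM), Cdc25a at NRF ZT4 (6.309 TPM), Myc at DRF ZT20 (12.12 TPM) and Bub1 at NRF ZT0 (0.364 TPM).

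In 14 of the 17, limma's test of regimen by clock time found that the rhythm differed between NRF and DRF. Of these 17, 9 had been chosen for the lowest interaction p of their class, so the count is not a result about the members, of which 20 of 40 were called, beside 43.7% of all genes. The adjusted p was 1.03e-05 for Cdk2, 2.62e-05 for Myc, 4.24e-05 for Wee1, 0.000415 for Mcm7, 0.000744 for Gins2, 0.00108 for Cdkn1b, 0.0012 for Mcm2 and 0.00347 for Ccnd3. It was 0.014 for Cdkn1a, 0.0303 for Ccnd2, 0.0316 for Bub1, 0.0343 for Ccnb1, 0.0354 for Cdc25a and 0.0411 for Cdc20.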

How the results depend on the processing

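The counts of members rhythmic under NRF stayed within 1.5 times of 16 in all alternatives run, and no result reversed. Members with different rhythms numbered 20 (43.7% of all genes), and 13 without ZT0 (36.8%), 13 without ZT12 (38.3%) and 12 without ZT24 (35.8%). They numbered 12 without libraries high in adipose markers (36.4%) and 13 without those low in medulla markers (39.7%). Mesor differences numbered 4 (10.3% of all genes), and 2 without ZT12 (7.27%), 12 without ZT20 (24.4%), 1 and 2 without the same sets of libraries (4.58% and 8.84%). Without libraries high in adipose markers there were 17 same-ZT and 30 meal-matched differences, 5 mitotic members lower at DRF ZT16 than NRF ZT4 and 5 with a 12-h component under DRF, which was also 5 without ZT4 or ZT8. Mitotic members rhythmic under DRF were 4 without ZT12 (28.6% of all genes), and under NRF 1 without ZT24 (45.5%). With a replicate left out, the ranges were 8 to 21 for rhythm under DRF, 9 to 22 for different rhythms, 0 to 4 for mesor, 18 to 32 for same-ZT and 26 to 46 for meal-matched differences, 2 to 9 for the 12-h component under DRF, 0 to 9 and 0 to 1 for mitotic members rhythmic under DRF and NRF, and 2 to 8 for those lower at DRF ZT16. Over the same fits 17.7 to 34.2% of all genes were rhythmic under DRF, 30.5 to 40.3% differed in rhythm and 4.11 to 9.6% had a mesor difference. The Wee1 peak shift was then -1.88 to -0.911 h and that of Cdkn1a -6.75 to -3.52 h. The Wee1 shift also missed the threshold without ZT4 (-0.67 h), ZT8 (-1.34 h), ZT20 (-1.35 h) or libraries high in adipose markers (-1.07 h), and that of Cdkn1a without ZT4 (-5.33 h), ZT8 (-4.52 h) or those libraries (-5.49 h). The Cdkn1a mesor difference passed it after median-of-ratios rescaling (2.83 TPM, permutation adjusted p = 0.0437). Fewer samples entered each fit that left some out, and the cause of the other changes was not tested. Shares of all genes are not given for same-ZT, meal-matched and 12-h counts in the alternatives.

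Same-numbered libraries did not deviate together (mean r 0.01 over 351 pairs), so the numbers were not taken as pairs. With the replicate number as a block, mitotic members rhythmic under NRF numbered 1, different rhythms 22 (42.6% of all genes), rhythm under DRF 19 (32.0%) and under NRF 15 (47.6%), mesor 4 (9.59%), same-ZT 34 and meal-matched differences 43. Pseudocounts, filters, voom and the log2(CPM + 1) scale were not run for the Wee1 and Cdkn1a cosines, nor a left-out ZT for single-hour contrasts. Rescaling moved libraries by -0.157 to 0.178 in log2 (DRF minus NRF mean -0.034). Depth limits the lowest members, such as Bub1.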
